A study of Mus musculus with 16 samples.

Results

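The 9 genes described here encode the cytokine receptor chains, kinases, transcription factor and feedback inhibitor through which cytokines of the interleukin-6 family signal, together with 1 of these cytokines. They are Lif, Il6st, Lifr, Osmr, Cntfr, Jak1, Jak2, Stat3 and Socs3. They were chosen by name, and each matched 1 of the 55356 gene identifiers in the table. Of the 9 genes, 7 passed the filter on low counts, as did 19156 genes in all. Lif and Socs3 did not pass and are given as counts.

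RNA was sequenced from dorsal root ganglion neurons, the sensory neurons of the body, grown from embryos of CD1 mice, an outbred stock. The study crossed inhibition of DLK, the dual leucine zipper kinase that responds to axon injury, with nocodazole, a drug that depolymerises microtubules. There were 4 groups of 4 libraries. The group called inhibitor plus nocodazole received 500 nM of the DLK inhibitor GNE3511 and, 15 min later, 200 nM nocodazole. The inhibitor group received 500 nM GNE3511 and then the solvent DMSO. The nocodazole group received DMSO and then 200 nM nocodazole, and the DMSO group received DMSO at both steps. Treatment began at 6 days in vitro and the second agent was left on for 16 h. The medium of all cultures held nerve growth factor, a survival factor for these cells, and fluorodeoxyuridine with uridine against dividing cells. DLK was inhibited with 1 compound at 1 dose, and nothing in the labels says that the 4 libraries of a group came from separate cultures, and the p-values therefore reflect only how far these libraries vary, a spread that may be technical.

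Cytokines of this family act through receptors that share the chain gp130, the product of Il6st. Leukaemia inhibitory factor (Lif) binds a pair of gp130 and the LIF receptor chain (Lifr), ciliary neurotrophic factor first binds its own receptor (Cntfr) and then recruits that pair, and oncostatin M in mice signals mainly through gp130 paired with the oncostatin M receptor chain (Osmr). The kinases JAK1 and JAK2 sit on these chains and phosphorylate STAT3, which then enters the nucleus, and Socs3 is a target gene of STAT3 whose protein binds gp130 and blocks the kinases. In the peripheral nervous system this pathway is known for its activation in sensory neurons after nerve injury and for its part in axon regrowth. RNA levels do not show whether STAT3 was phosphorylated.

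Total counts ran from 30987962 to 43321421 per library. The 9 markers of sensory neurons were detected in every group, and their summed level was 6456 to 7928 CPM (counts scaled to a common library size) in inhibitor plus nocodazole, 7453 to 8748 CPM with the inhibitor, 6538 to 7305 CPM with nocodazole and 9091 to 10070 CPM in DMSO. Of these 9 markers, the edgeR test described below called 1 higher and 7 lower in nocodazole than in DMSO. Of all genes tested, 18.6% were called higher and 19.0% lower. Most of the fall in the sum came from Tubb3, which encodes a subunit of microtubules, the target of nocodazole. Tubb3 averaged 1591 CPM in inhibitor plus nocodazole, 2363 CPM with the inhibitor, 1014 CPM with nocodazole and 3065 CPM in DMSO. Prph, also abundant, averaged 2844 CPM with nocodazole and 2907 CPM in DMSO. The sum is therefore a poor measure of neuron content. The summed level of 9 Schwann cell and satellite glia markers was 74.21 to 138.2 CPM in inhibitor plus nocodazole, 87.39 to 153.6 CPM with the inhibitor, 85.86 to 134 CPM with nocodazole and 151.4 to 175 CPM in DMSO, but Mbp and S100b made up nearly all of it and the other 7 averaged below 1 CPM. Of those, Sox10 averaged 0.2775 CPM with nocodazole and 0.1519 CPM in DMSO, and Erbb3 0.8267 CPM and 0.3703 CPM in the same 2 groups. The 7 fibroblast markers summed to 1.396 to 2.45 CPM in inhibitor plus nocodazole, 2.038 to 4.388 CPM with the inhibitor, 5.406 to 8.07 CPM with nocodazole and 2.109 to 5.068 CPM in DMSO. The 6 macrophage markers summed to 1.752 to 3.027 CPM in inhibitor plus nocodazole, 1.57 to 2.761 CPM with the inhibitor, 4.158 to 5.592 CPM with nocodazole and 2.226 to 2.626 CPM in DMSO. The 5 endothelial markers stayed at or below 1.296 CPM and the 5 pericyte markers at or below 2.587 CPM in every library. Fewer cells of a type and less RNA per cell cannot be told apart in such bulk samples, and the part of these marker differences in the results below was not tested. Replicate 1 of inhibitor plus nocodazole stood apart from the other 3 libraries of its group on the first principal component, which held 38.2% of the variance, at 10.4 against -31.4 to -28.4, with the nocodazole libraries at 59.5 to 69.7.

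The levels of the 9 genes spanned a wide range. Per kilobase of exon, Lifr was the highest in DMSO at 91.62 ± 10.94 CPM per kb (SD, n = 4, as for the levels that follow), followed by Il6st at 61.51 ± 4.349, Cntfr at 44.87 ± 1.208, Stat3 at 20.81 ± 0.3587, Jak1 at 16.83 ± 1.007 and Jak2 at 4.596 ± 0.1014 CPM per kb. No neighbours among these 6 overlapped in the DMSO libraries. Socs3 (0.06565 ± 0.02824), Lif (0.01754 ± 0.01476) and Osmr (0.004251 ± 0.002623 CPM per kb) lay far below, and Socs3 and Lif overlapped, as did Lif and Osmr. The 3 highest genes encode the chains of the LIF and CNTF receptors, and the lowest encodes the oncostatin M receptor chain. The order of the 6 higher genes by mean was the same in every group, except that Lifr and Il6st changed places in nocodazole. In nocodazole, Lifr (50.06 ± 4.966 CPM per kb) and Il6st (50.87 ± 2.877) overlapped, and so did Stat3 (34.31 ± 4.294) and Cntfr (39.14 ± 2.024). With the inhibitor alone, Stat3 (16.25 ± 1.377) and Jak1 (15.72 ± 0.2639 CPM per kb) overlapped. In inhibitor plus nocodazole, Lifr stood at 88.59 ± 12.92, Il6st at 55.33 ± 5.401, Cntfr at 44.83 ± 2.64, Stat3 at 17.05 ± 0.9228, Jak1 at 15.98 ± 0.6204 and Jak2 at 5.799 ± 0.3024 CPM per kb, and Stat3 and Jak1 overlapped.

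**Figure D1:**
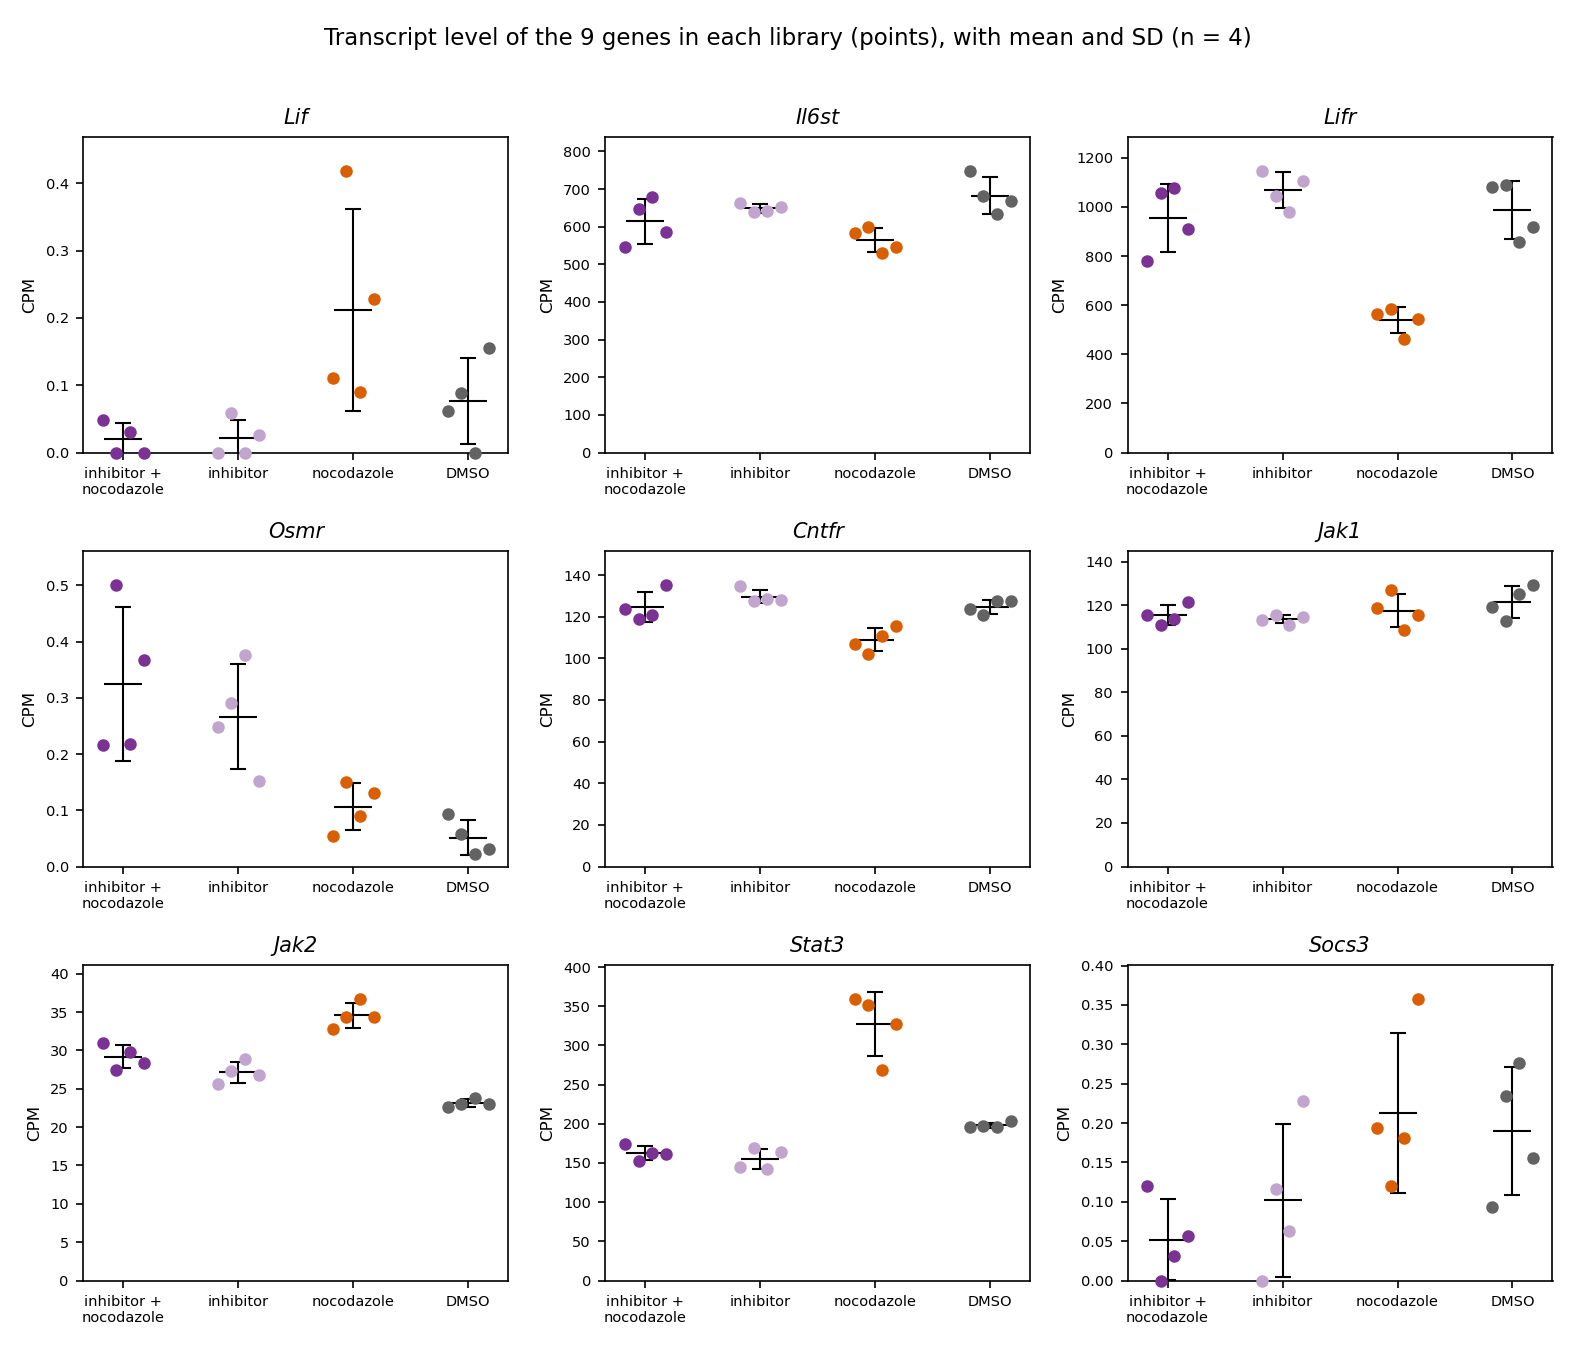
Level in CPM of the 9 genes (vertical axis, linear from 0 in each panel) in the 4 libraries of each group, with the mean as a bar and the SD as whiskers. Stat3 and Jak2 were highest and Lifr lowest in the 4 nocodazole libraries, and Osmr was higher in both groups with the inhibitor than in DMSO; Lif, Osmr and Socs3 stayed below 1 CPM in every library.

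Promoter sequences are shown for the 3 genes of the set with a called interaction and for Il6ra, to give the letters upstream of them. Each is the 250 bases before a RefSeq start site on GRCm38.p6, read 5′ to 3′ on the gene's strand, with capitals marking matches to the searched motifs. All 9 genes and Il6ra, a receptor gene of the wider pathway, had at least 1 window in the RefSeq table. Stat3 is on the minus strand at chr11:100939541-100939790, Jak2 on the plus strand at chr19:29251553-29251802, the first of the 2 windows of Lifr on the plus strand at chr15:7129322-7129571, and Il6ra on the minus strand at chr3:89913197-89913446.
Stat3: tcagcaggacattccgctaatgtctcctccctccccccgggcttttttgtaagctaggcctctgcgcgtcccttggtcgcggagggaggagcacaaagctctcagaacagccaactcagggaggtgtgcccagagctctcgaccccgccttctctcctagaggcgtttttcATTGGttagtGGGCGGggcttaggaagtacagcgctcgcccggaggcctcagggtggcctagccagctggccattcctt
Jak2: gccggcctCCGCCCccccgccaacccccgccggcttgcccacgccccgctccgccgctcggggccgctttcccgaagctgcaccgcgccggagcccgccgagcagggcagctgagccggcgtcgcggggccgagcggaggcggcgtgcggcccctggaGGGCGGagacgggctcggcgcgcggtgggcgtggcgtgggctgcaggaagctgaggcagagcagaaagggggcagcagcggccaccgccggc
Lifr: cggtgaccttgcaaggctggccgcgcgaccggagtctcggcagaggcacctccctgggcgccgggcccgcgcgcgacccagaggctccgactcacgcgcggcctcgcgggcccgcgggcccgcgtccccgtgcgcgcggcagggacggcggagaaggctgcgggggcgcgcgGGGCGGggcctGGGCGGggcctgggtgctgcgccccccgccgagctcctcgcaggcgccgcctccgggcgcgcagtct
Il6ra: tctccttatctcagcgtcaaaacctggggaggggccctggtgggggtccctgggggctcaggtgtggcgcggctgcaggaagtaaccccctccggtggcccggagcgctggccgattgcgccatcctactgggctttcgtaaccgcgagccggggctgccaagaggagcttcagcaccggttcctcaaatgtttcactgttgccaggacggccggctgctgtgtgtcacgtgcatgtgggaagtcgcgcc
The motifs, searched on both strands, were a STAT element (TTCNNNGAA, in 7.02% of 32851 promoter windows of this length), an AP-1 element (TGANTCA, 6.75%), a cyclic AMP response element (TGACGTCA, 1.55%), a GC box (GGGCGG, 32.7%) and a CCAAT box (CCAAT, 33.8%). Capitals therefore mark a CCAAT box and a GC box in the Stat3 window, GC boxes in the Jak2 and Lifr windows, and nothing in the Il6ra window. Over the 15 windows of the 9 genes, some of which overlap at Cntfr, the STAT element had 1 match, the AP-1 element 1 and the cyclic AMP response element 1. These 3 matches are shown with up to 10 bases on either side: Socs3 on the minus strand at chr11:117969502-117969530, Lif on the plus strand at chr11:4257330-4257356 and Jak1 on the minus strand at chr4:101265307-101265334.
Socs3, STAT element: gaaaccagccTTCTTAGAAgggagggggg
Lif, AP-1 element: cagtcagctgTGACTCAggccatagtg
Jak1, cyclic AMP response element: gagcagcttcTGACGTCAcgggggctgg
A match describes letters in a window and is not evidence of binding.

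Nocodazole moved genes of the set in opposite directions: of the 7 tested genes, Stat3 and Jak2 were higher than in DMSO, and the receptor chains Lifr, Il6st and Cntfr were lower. Calls rest on edgeR's quasi-likelihood test at a Benjamini-Hochberg adjusted p below 0.05 over all 19156 genes. The 2 genes called higher stand beside 18.6% of all tested genes called higher, and the 3 called lower beside 19.0% called lower (37.5% in either direction). In cells already given the inhibitor, edgeR called none of the 7 for nocodazole, as for nearly all genes: 0.0835% of all genes were called (0.0783% higher and 0.00522% lower). Of the 7, 0 had an unadjusted p below 0.05. DESeq2 also called 0, but it gave no adjusted p for Osmr here. Neither result shows that the levels were equal. Without nocodazole, Osmr and Jak2 were called higher and Stat3 lower in the inhibitor group than in DMSO, beside 5.78% of genes called higher and 7.24% called lower (13.0% in either direction). With nocodazole present in both groups, cells with the inhibitor had more Lifr, Cntfr and Osmr (17.7% of genes called higher) and less Stat3 and Jak2 (16.2% called lower, 33.9% in either direction) than cells without it. The interaction (the log2 change by nocodazole in cells given the inhibitor, minus the same change in cells not given it) was called for Lifr (higher, beside 9.52% of all genes) and for Stat3 and Jak2 (lower, beside 9.20%), where 18.7% were called in either direction. Osmr counts in these calls although it passed the filter only through libraries where it was high, and is treated apart below. These contrasts share groups, so their values for a gene are not independent.

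**Figure D2:**
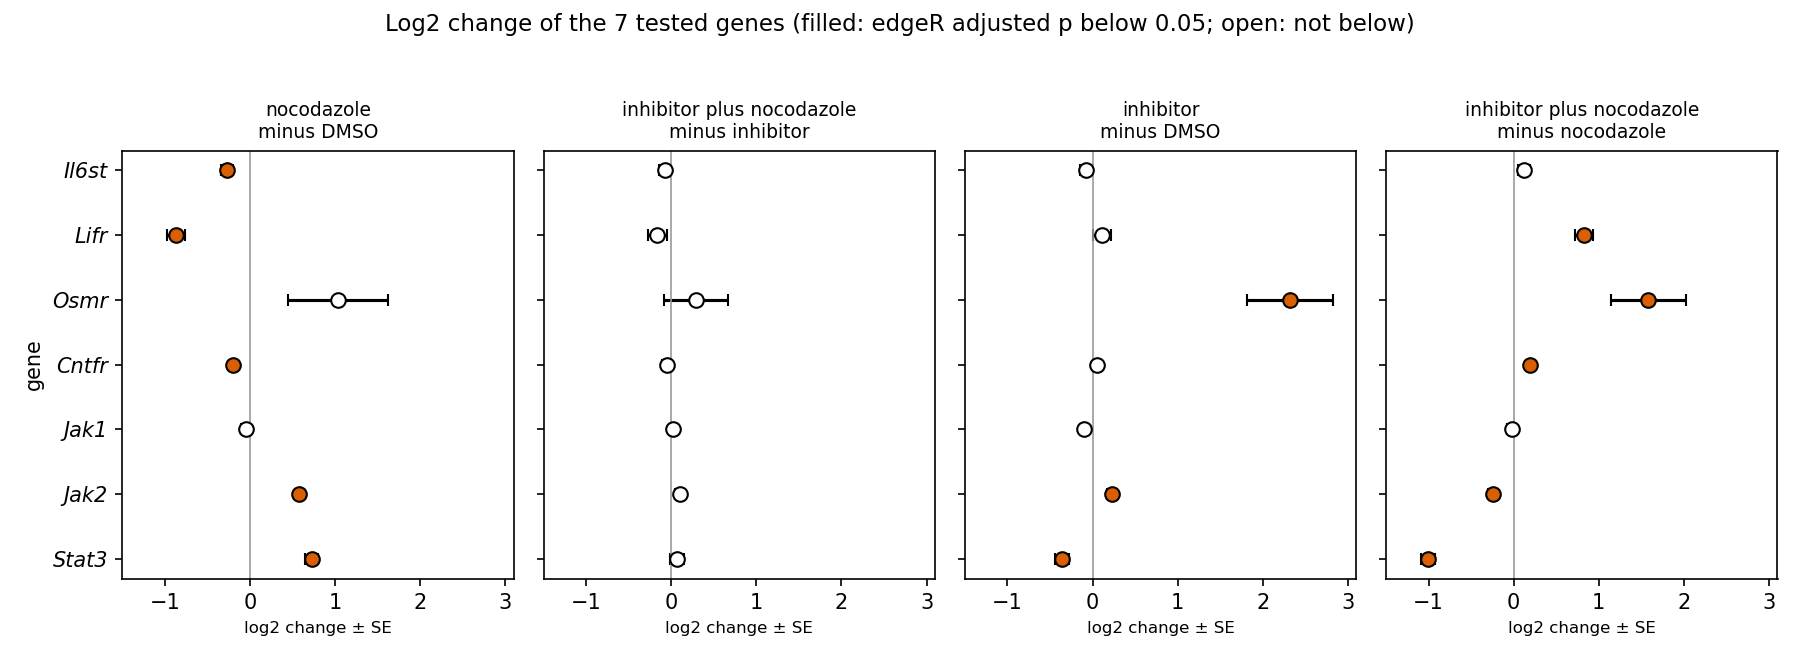
Log2 change with its SE (horizontal axis) of the 7 tested genes (vertical axis) in 4 contrasts; filled points had an edgeR adjusted p below 0.05. Filled points fall on both sides of 0 for nocodazole minus DMSO, and all 7 points are open for inhibitor plus nocodazole minus inhibitor; Osmr passed the filter only through libraries with the inhibitor.

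Among the ligands, Lif, a cytokine released at sites of nerve injury, was barely detected. It had 2, 0, 1 and 0 counts in the libraries of inhibitor plus nocodazole, 0, 2, 0 and 1 counts with the inhibitor, 4, 14, 3 and 7 counts with nocodazole and 2, 3, 0 and 5 counts in DMSO. Every nocodazole library held more Lif counts than every library with the inhibitor, and the nocodazole and DMSO libraries overlapped. Over the 4 libraries together, inhibitor plus nocodazole had 3 counts and nocodazole 28, a ratio of 0.101 per scaled library size with an exact 95% interval of 0.0197 to 0.328, which covers counting error only. In a fit with no filter, over 36165 genes, that difference was -3.13 ± 0.91 on the log2 scale (SE here and below; edgeR adjusted p = 0.0169). In the same fit, nocodazole against DMSO, with 28 against 10 counts, gave 1.48 ± 0.76 (edgeR adjusted p = 0.205).

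Il6st, which encodes gp130, was abundant in every group. It stood at 545, 647.2, 678.2 and 585.8 CPM in inhibitor plus nocodazole, at 664.2, 639.4, 640.7 and 652.1 CPM with the inhibitor, at 582.2, 599.6, 529.8 and 546.9 CPM with nocodazole and at 748.5, 680.5, 633.2 and 668.8 CPM in DMSO. All 4 nocodazole libraries lay below all 4 DMSO libraries, and the libraries of inhibitor plus nocodazole spanned both ranges. Il6st fell by 0.27 ± 0.07 on the log2 scale in nocodazole against DMSO (edgeR adjusted p = 0.00544), while with the inhibitor present the nocodazole change was -0.08, with a 95% interval of -0.23 to 0.07. Inhibitor plus nocodazole against nocodazole gave 0.12 ± 0.07 (edgeR adjusted p = 0.201), and the interaction gave 0.19 ± 0.10 (edgeR adjusted p = 0.178). Without replicate 1 of inhibitor plus nocodazole these were 0.18 (edgeR adjusted p = 0.0453) and 0.25 (edgeR adjusted p = 0.0498), so both calls turned on that library.

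Lifr, the partner chain of gp130 for LIF and CNTF, showed the largest fall in nocodazole of the 7 genes. Its level was 778.6, 1056, 1076 and 908.1 CPM in inhibitor plus nocodazole and 1147, 1044, 979.4 and 1106 CPM with the inhibitor. It was 564, 585.6, 463.1 and 545.2 CPM with nocodazole and 1083, 1091, 856 and 919.5 CPM in DMSO. The nocodazole libraries lay below all 12 others, which overlapped among themselves. Lifr fell by 0.87 ± 0.11 on the log2 scale in nocodazole, 1.83-fold lower than in DMSO (edgeR adjusted p = 1.11e-05). The nocodazole change with the inhibitor was -0.16 ± 0.11 (95% interval -0.39 to 0.06), and the interaction of 0.71 ± 0.15 was called (edgeR adjusted p = 0.00424). Inhibitor plus nocodazole was 1.77-fold higher than nocodazole (edgeR adjusted p = 1.9e-05), and the inhibitor alone differed from DMSO by 0.12 (95% interval -0.11 to 0.34). The part of the lower neuron markers in nocodazole in the lower Lifr level was not tested.

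Osmr, the chain that pairs with gp130 for oncostatin M, had few counts in every library, so its values are coarse. It had 9, 16, 7 and 13 counts in inhibitor plus nocodazole, 9, 10, 12 and 6 counts with the inhibitor, 2, 5, 3 and 4 counts with nocodazole and 3, 2, 1 and 1 counts in DMSO. Both inhibitor groups lay above both groups without it, with no overlap. Osmr passed the filter only through 4 libraries with the inhibitor (2 in each of the 2 groups that were high), so its calls in the filtered fit had to lie on that side and are not given as support. The summed counts of 37 with the inhibitor and 7 in DMSO gave a ratio of 5.28 with an exact 95% counting interval of 2.32 to 14, and 45 in inhibitor plus nocodazole against 14 in nocodazole gave 3.04 (1.64 to 6). In the fit with no filter, the inhibitor minus DMSO difference was 2.30 ± 0.55 on the log2 scale (edgeR adjusted p = 0.0119) and the inhibitor plus nocodazole minus nocodazole difference was 1.58 ± 0.48 (edgeR adjusted p = 0.0228). Nocodazole against DMSO gave 1.01 ± 0.63 in that fit (edgeR adjusted p = 0.314), and the interaction was -0.72 ± 0.74 (edgeR adjusted p = 0.677). DESeq2 gave no adjusted p for the inhibitor against DMSO, and Osmr did not pass the filter where only the 2 groups compared were fitted.

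The balance between the oncostatin M and LIF receptor chains was also compared within libraries, as log2 CPM of Osmr minus that of Lifr with a prior count of 2, which draws the low Osmr counts closer together. This log2 ratio was -11.34 ± 0.47 in inhibitor plus nocodazole, -11.73 ± 0.52 with the inhibitor, -11.72 ± 0.39 with nocodazole and -13.19 ± 0.26 in DMSO (SD, n = 4 each). The DMSO libraries lay below all others. Nocodazole minus DMSO was 1.46 and inhibitor minus DMSO was 1.45, each with p = 0.0286 in an exact two-sided permutation test, the smallest that 4 against 4 can give; adjusted over the 4 comparisons made this is 0.0572, which misses 0.05. The other 2 differences were 0.40 for inhibitor plus nocodazole minus inhibitor and 0.38 for inhibitor plus nocodazole minus nocodazole (exact p = 0.257 each). Osmr passed the filter only through libraries with the inhibitor. The ratio differences between groups with and without the inhibitor are therefore descriptions and are not given as support. The difference of 1.46 for nocodazole minus DMSO also holds the Lifr change of -0.87 given above.

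Cntfr, the binding chain for ciliary neurotrophic factor, changed little in size. Its level was 123.8, 118.9, 120.8 and 135.3 CPM in inhibitor plus nocodazole, 134.5, 127.3, 128.6 and 128.1 CPM with the inhibitor, 107.1, 102.2, 110.9 and 115.4 CPM with nocodazole and 123.7, 120.6, 127.5 and 127.5 CPM in DMSO. As for Lifr, the nocodazole libraries lay below the 12 others. Cntfr fell by 0.20 ± 0.05 on the log2 scale in nocodazole against DMSO (edgeR adjusted p = 0.00608) and was 0.20 ± 0.05 higher in inhibitor plus nocodazole than in nocodazole (edgeR adjusted p = 0.00681). The interaction was 0.14 ± 0.07 (edgeR adjusted p = 0.179), so a difference between the nocodazole changes with and without the inhibitor was not shown for this chain.

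The kinases differed from each other. Jak1, the main kinase on gp130, had 110.9 to 121.5 CPM in inhibitor plus nocodazole, 111 to 115.4 CPM with the inhibitor, 108.7 to 127 CPM with nocodazole and 112.6 to 129.4 CPM in DMSO, and all groups overlapped. None of its 5 contrasts was called: nocodazole minus DMSO was -0.05 (95% interval -0.17 to 0.07), inhibitor minus DMSO was -0.10 (-0.21 to 0.02), and the interaction was 0.07 (-0.09 to 0.24). Jak2, a second kinase of these receptors, stood at 30.94, 27.5, 29.82 and 28.4 CPM in inhibitor plus nocodazole and at 25.56, 27.29, 28.93 and 26.79 CPM with the inhibitor. With nocodazole it was at 32.82, 34.37, 36.72 and 34.35 CPM, and in DMSO at 22.65, 22.96, 23.84 and 23.02 CPM. The nocodazole libraries were the highest and the DMSO libraries the lowest, with both inhibitor groups between them and overlapping each other. Jak2 rose by 0.58 ± 0.06 in nocodazole, 1.49-fold above DMSO (edgeR adjusted p = 1.07e-06), and was 0.25 lower on the log2 scale in inhibitor plus nocodazole than in nocodazole (log2 change -0.25 ± 0.06, edgeR adjusted p = 0.00278). The interaction was -0.48 ± 0.08 (edgeR adjusted p = 0.000793).

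The inhibitor alone also left Jak2 higher than DMSO, by 0.23 ± 0.06 (edgeR adjusted p = 0.0142), so the inhibitor's difference had opposite signs with and without nocodazole. That call did not survive leaving out DMSO replicate 1 (0.20, edgeR adjusted p = 0.0576) or inhibitor replicate 3 (0.20, edgeR adjusted p = 0.0583), or dropping the filter on low counts (0.21, edgeR adjusted p = 0.0972).

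Stat3, the transcription factor at the end of the pathway, had the largest rise in nocodazole that passed the test among the 7 genes. It was at 173.6, 152.2, 163 and 161.1 CPM in inhibitor plus nocodazole and at 145.1, 168.5, 142.2 and 163.4 CPM with the inhibitor. It was at 359.5, 351.5, 269 and 327.5 CPM with nocodazole and at 195.9, 197.6, 196.2 and 203.2 CPM in DMSO. The nocodazole libraries were the highest, both inhibitor groups lay below the narrow DMSO range, and the inhibitor groups overlapped each other. Stat3 rose 1.65-fold in nocodazole against DMSO (log2 change 0.72 ± 0.08, edgeR adjusted p = 3.93e-06) and was 2.01-fold lower in inhibitor plus nocodazole than in nocodazole (log2 change -1.01 ± 0.08, edgeR adjusted p = 1.34e-07).

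Stat3 also fell by 0.36 ± 0.08 with the inhibitor alone (edgeR adjusted p = 0.00862). With the inhibitor present, nocodazole changed it by 0.07 ± 0.08 (95% interval -0.10 to 0.24, edgeR adjusted p = 0.99), an interval that lies below the change seen without the inhibitor. The interaction was -0.65 ± 0.11 (edgeR adjusted p = 0.00105). The window printed above for Stat3 held no STAT element match.

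Socs3, the feedback inhibitor of the pathway and the gene among the 9 whose window held the STAT element, was also scarce. It had 5, 0, 1 and 2 counts in inhibitor plus nocodazole, 0, 4, 2 and 9 counts with the inhibitor, 7, 4, 6 and 11 counts with nocodazole and 3, 8, 12 and 5 counts in DMSO. The nocodazole and DMSO libraries overlapped and both summed to 28 counts, so the higher Stat3 level in nocodazole was not accompanied by a detectable difference in Socs3 at this depth: the ratio was 1.06 with an exact 95% counting interval of 0.607 to 1.86. In the fit with no filter, none of the 5 contrasts of Socs3 was called. The lowest adjusted p was for inhibitor plus nocodazole against nocodazole, with 8 against 28 counts (log2 change -1.86 ± 0.73, edgeR adjusted p = 0.0877).

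A wider list of 75 other genes of the pathway was then read in the same fit, and 56 of them passed the filter. In nocodazole against DMSO, 18 of the 56 were higher, beside 18.6% of all genes, and 10 lower, beside 19.0%, with a median log2 change of 0.10 against 0.01 over all genes tested. The count called lower is thus near the background. Of the 18 called higher, 13 were among the 22 tested genes known as STAT3 targets. The others were 3 inhibitors of the pathway, 1 other STAT gene and 1 receptor chain. The list was chosen with earlier results of these data known, so its counts are descriptions. With the inhibitor present, nocodazole left 0 of 56 called by edgeR and 0 by DESeq2, with 6 at an unadjusted p below 0.05. The inhibitor against DMSO gave 3 higher (5.78% of all genes) and 7 lower (7.24%), inhibitor plus nocodazole against nocodazole 7 higher (17.7%) and 18 lower (16.2%), and the interaction 6 higher (9.52%) and 10 lower (9.20%). The counts called higher are near or below these shares of all genes. Their medians were -0.11, -0.17 and -0.04, against 0.03, 0.00 and 0.00 over all genes. The 19 genes removed by the filter had 1 to 108 counts over the 16 libraries together and included the ligands Il6, Il11 and Osm.

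**Figure D3:**
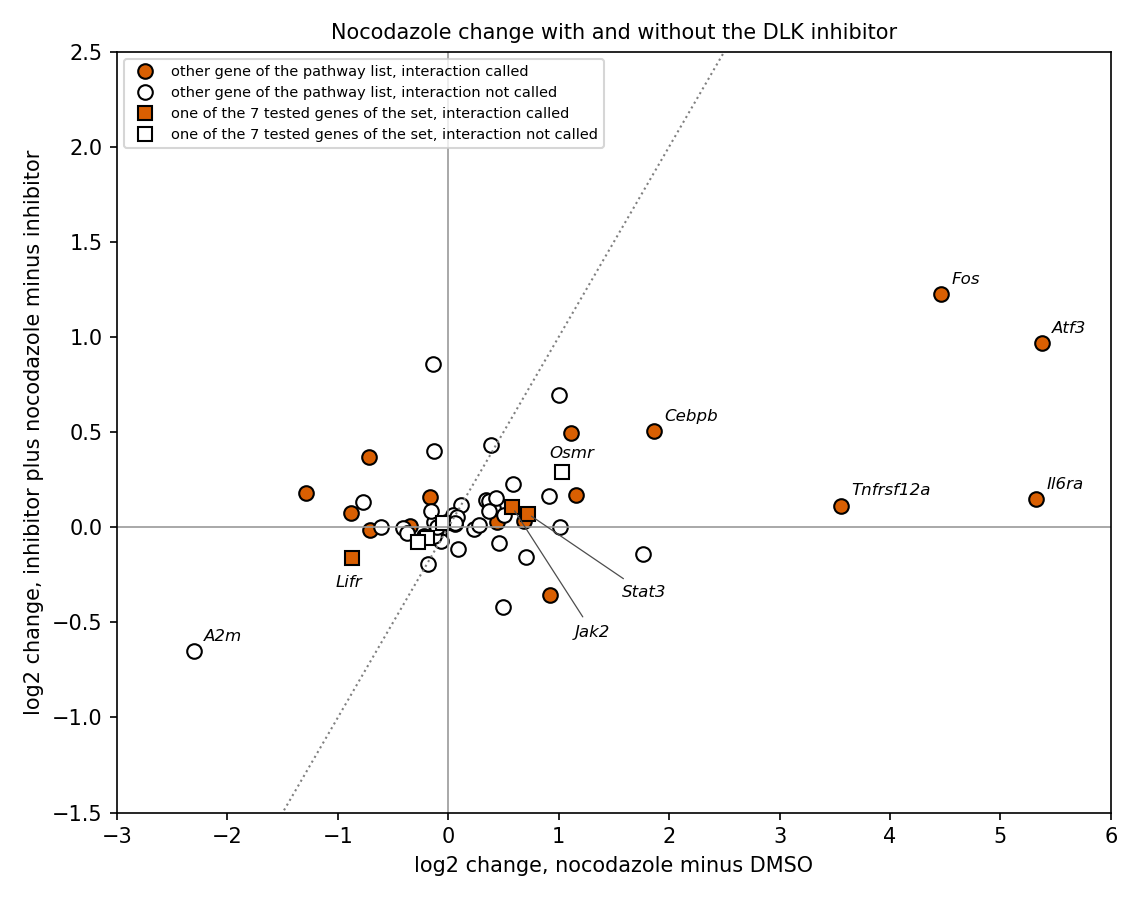
Log2 change in nocodazole minus DMSO (horizontal) against that in inhibitor plus nocodazole minus inhibitor (vertical) for the 7 tested genes (squares) and the 56 other pathway genes (circles), with the line of equality dotted; filled symbols had a called interaction. Most points lie nearer to the horizontal line at 0 than to the line of equality, including Il6ra at 5.32 and 0.15 and Stat3 at 0.72 and 0.07.

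Among the other receptor chains and ligands, Il6ra, which encodes the chain that binds interleukin-6 itself, stood out. It was at 0.7688, 0.2819, 0.2172 and 0.2826 CPM in inhibitor plus nocodazole and 0.2203, 0.6103, 0.3444 and 0.2786 CPM with the inhibitor. It was at 6.372, 5.804, 8.493 and 8.424 CPM with nocodazole and 0.03111, 0, 0.4146 and 0.2171 CPM in DMSO. The nocodazole libraries lay above the other 12, and replicate 1 of inhibitor plus nocodazole was the highest of those 12. Il6ra rose by 5.32 ± 0.54 on the log2 scale in nocodazole against DMSO (edgeR adjusted p = 1.52e-06), a size that depends on the few DMSO counts. It was 4.17 lower on that scale in inhibitor plus nocodazole than in nocodazole (log2 change -4.17 ± 0.48, edgeR adjusted p = 5.8e-06), and its interaction was -5.18 ± 0.80 (edgeR adjusted p = 0.000408). Macrophages also express Il6ra: their markers Cx3cr1, Adgre1 and Ptprc had 7, 20 and 37 counts over all 16 libraries. Cd68 averaged 2.161 CPM with nocodazole and 0.4277 CPM in DMSO, Csf1r 1.068 CPM with nocodazole and 0.6896 CPM in DMSO, and Aif1 1.278 CPM with nocodazole and 1.08 CPM in DMSO; their part in the Il6ra result was not tested. Of 5 other ligand genes tested, 1 was called lower in nocodazole, near the 19.0% of all genes. Clcf1, a ligand of the CNTF receptor, gave -0.78 ± 0.26 in inhibitor plus nocodazole against nocodazole (edgeR adjusted p = 0.03), and this call was lost in 6 of the alternatives, among them a fit of only those 2 groups (edgeR adjusted p = 0.0929). The exons of Clcf1 overlap those of AC109138.7, on the same strand, over 8.17% of their length, so its values are uncertain. Those of Il6ra overlap Gm42809, on the other strand, over 2.8%.

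Of 5 other STAT genes tested in nocodazole against DMSO, 1 was higher and 2 were lower, beside 18.6% and 19.0% of all genes, counts too small to describe a group. Stat5a, a STAT used by other cytokine receptors and neighbour of Stat3 on its chromosome, rose by 0.92 ± 0.21 in nocodazole (edgeR adjusted p = 0.00253), with 1.965 to 3.513 CPM in nocodazole and 1.083 to 1.892 CPM in DMSO, and its interaction was -1.28 ± 0.31 (edgeR adjusted p = 0.0095). Its exons overlap those of Stat3, on the other strand, over 1.01% of their length. Stat3 was far more abundant, at 34.31 CPM per kb in nocodazole and 20.81 in DMSO, against 0.3982 and 0.2107 for Stat5a. Whether counting used strand is not given, so the Stat5a values are uncertain. The part of Stat3 reads in them was not tested. Stat2, an interferon pathway STAT, went the other way: it had 158 to 256.2 CPM in inhibitor plus nocodazole, 147.3 to 196.7 CPM with the inhibitor, 84.3 to 99.35 CPM with nocodazole and 139.9 to 163.2 CPM in DMSO. It fell by 0.72 ± 0.12 in nocodazole (edgeR adjusted p = 0.000258) and its interaction was 1.09 ± 0.17 (edgeR adjusted p = 0.000573). Stat6, the STAT of interleukin-4, gave -1.54 ± 0.56 in inhibitor plus nocodazole against nocodazole (edgeR adjusted p = 0.0413). Its nocodazole libraries were split, at 4.606 and 5.654 CPM in replicates 1 and 2 and 1.239 and 0.8782 CPM in the other 2, and the call was lost without either of the first 2 (edgeR adjusted p = 0.12 and 0.163), without replicate 2, 3 or 4 of inhibitor plus nocodazole (0.111 to 0.112) and in a fit of only those 2 groups (0.118). The exons of Stat6 overlap those of Nab2, on the other strand, over 0.909% of their length.

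Of 14 tested inhibitors of the pathway, 3 were higher and 1 was lower in nocodazole than in DMSO, near or below the 18.6% and 19.0% of all genes. Socs2, a relative of Socs3 that restrains growth hormone signalling, was at 5.596 to 8.529 CPM in inhibitor plus nocodazole, 4.434 to 7.264 CPM with the inhibitor, 6.813 to 9.065 CPM with nocodazole and 3.288 to 3.801 CPM in DMSO. All 3 treated groups lay above DMSO: Socs2 rose by 1.16 ± 0.16 in nocodazole (edgeR adjusted p = 3.78e-05) and by 0.75 ± 0.16 with the inhibitor alone (edgeR adjusted p = 0.00677). Its interaction was -0.99 ± 0.23 (edgeR adjusted p = 0.00654). Ptprt, a receptor phosphatase that acts on STAT3, gave 0.50 ± 0.21 in nocodazole (edgeR adjusted p = 0.0709) and -0.83 ± 0.21 in inhibitor plus nocodazole against nocodazole (edgeR adjusted p = 0.00617). Among 5 adaptors, Gab1, a docking protein that links gp130 to the MAP kinase route, was lower in both inhibitor groups: it fell by 0.80 ± 0.10 with the inhibitor against DMSO (edgeR adjusted p = 0.000206) and by 0.82 ± 0.10 in inhibitor plus nocodazole against nocodazole (edgeR adjusted p = 1.16e-05). Its nocodazole change was -0.18 ± 0.10 (edgeR adjusted p = 0.166) and its interaction -0.01 ± 0.14 (edgeR adjusted p = 0.958). The exons of Gab1 overlap those of Gm31105, on the other strand, over 5.23% of their length.

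Of 22 tested genes known as STAT3 targets, 13 were higher in nocodazole than in DMSO, beside 18.6% of all genes, and 4 were lower, beside 19.0%, with a median log2 change of 0.38 against 0.01 over all genes. The list was chosen with earlier results of these data known, so the count is a description. In inhibitor plus nocodazole against nocodazole, 3 of the 22 were higher (17.7% of all genes) and 8 lower (16.2%), and in the interaction 1 was higher (9.52%) and 6 lower (9.20%). Many of these genes are also targets of JNK and AP-1 signalling, so the list does not isolate STAT3. Atf3, a stress transcription factor induced by axon injury, had 2.6 to 5.598 CPM in inhibitor plus nocodazole, 1.129 to 2.411 CPM with the inhibitor, 161.6 to 216.1 CPM with nocodazole and 1.523 to 8.477 CPM in DMSO. It rose by 5.38 ± 0.39 in nocodazole (edgeR adjusted p = 4.96e-08), and its interaction was -4.41 ± 0.58 (edgeR adjusted p = 0.000116). Tnfrsf12a, the TWEAK receptor, rose by 3.56 ± 0.25 in nocodazole (edgeR adjusted p = 4.38e-08), with 26.8 to 44.64 CPM in nocodazole and 2.022 to 4.169 CPM in DMSO, and also fell by 1.18 ± 0.27 with the inhibitor alone (edgeR adjusted p = 0.0103). Fos, an AP-1 subunit, stood at 2.667 to 5.82 CPM in nocodazole and 0.09306 to 0.2534 CPM in DMSO. It passed the filter only with the help of the nocodazole libraries, where it was high, and in the fit with no filter it rose by 4.45 ± 0.41 (edgeR adjusted p = 1.38e-08) with an interaction of -3.21 ± 0.83 (edgeR adjusted p = 0.0144). In the filtered fit the interaction call was lost without inhibitor replicate 3 (edgeR adjusted p = 0.096).

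Cebpb, a transcription factor of the acute phase response, had 8.426 to 16.5 CPM in inhibitor plus nocodazole, 5.564 to 10.33 CPM with the inhibitor, 25.79 to 33.28 CPM with nocodazole and 6.561 to 9.421 CPM in DMSO, and rose by 1.86 ± 0.21 in nocodazole (edgeR adjusted p = 4.06e-06). Its exons overlap those of Tmem189 over 20.7% of their length, and whether counting used strand is not given, so its value is uncertain. Bcl2l1, whose product BCL-XL protects neurons from apoptosis, rose by 0.69 ± 0.11 in nocodazole (edgeR adjusted p = 0.000175) and had an interaction of -0.65 ± 0.16 (edgeR adjusted p = 0.0103). Junb, another AP-1 subunit, rose by 1.76 ± 0.47 (edgeR adjusted p = 0.00699), and Gadd45g, a stress response gene, by 0.91 ± 0.19 (edgeR adjusted p = 0.00125). Their interactions missed the threshold, at -1.90 ± 0.67 (edgeR adjusted p = 0.059) and -0.75 ± 0.27 (edgeR adjusted p = 0.0592). The exons of Junb overlap those of Prdx2, on the other strand, over 7.52% of their length, so its value is uncertain as for Cebpb. Vegfa, an angiogenic and neurotrophic factor, rose with nocodazole by 1.11 ± 0.14 (edgeR adjusted p = 1.59e-05) and with the inhibitor alone by 0.57 ± 0.14 (edgeR adjusted p = 0.0154). It had 175 to 246.5 CPM in inhibitor plus nocodazole, 109.2 to 170.2 CPM with the inhibitor, 168.6 to 229.8 CPM with nocodazole and 84.91 to 99.63 CPM in DMSO.

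Other genes of this group fell. Myc, a growth regulator, fell by 0.88 ± 0.13 in nocodazole (edgeR adjusted p = 5.93e-05), and its interaction was 0.96 ± 0.18 (edgeR adjusted p = 0.002). A2m, a protease inhibitor of the acute phase response, fell by 2.30 ± 0.54 in nocodazole (edgeR adjusted p = 0.00292), with at most 3.25 CPM in any library. Serpina3n, a serine protease inhibitor from a family of near-identical genes between which reads may be split, gave -0.77 ± 0.29 in nocodazole against DMSO (edgeR adjusted p = 0.0427), a call lost on leaving out any of 7 of the 8 libraries compared. Il4ra, a receptor chain for interleukin-4, fell by 0.41 ± 0.11 in nocodazole (edgeR adjusted p = 0.00608) and by 0.82 ± 0.11 with the inhibitor against DMSO (edgeR adjusted p = 0.000239). Its 4 groups lay at 4.855 to 5.989 CPM in inhibitor plus nocodazole, 4.6 to 5.901 CPM with the inhibitor, 6.68 to 7.15 CPM with nocodazole and 8.057 to 10.05 CPM in DMSO. The exons of Il4ra overlap those of Gm44876, on the other strand, over 9.51% of their length, so its values are uncertain as for Cebpb.

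**Figure D4:**
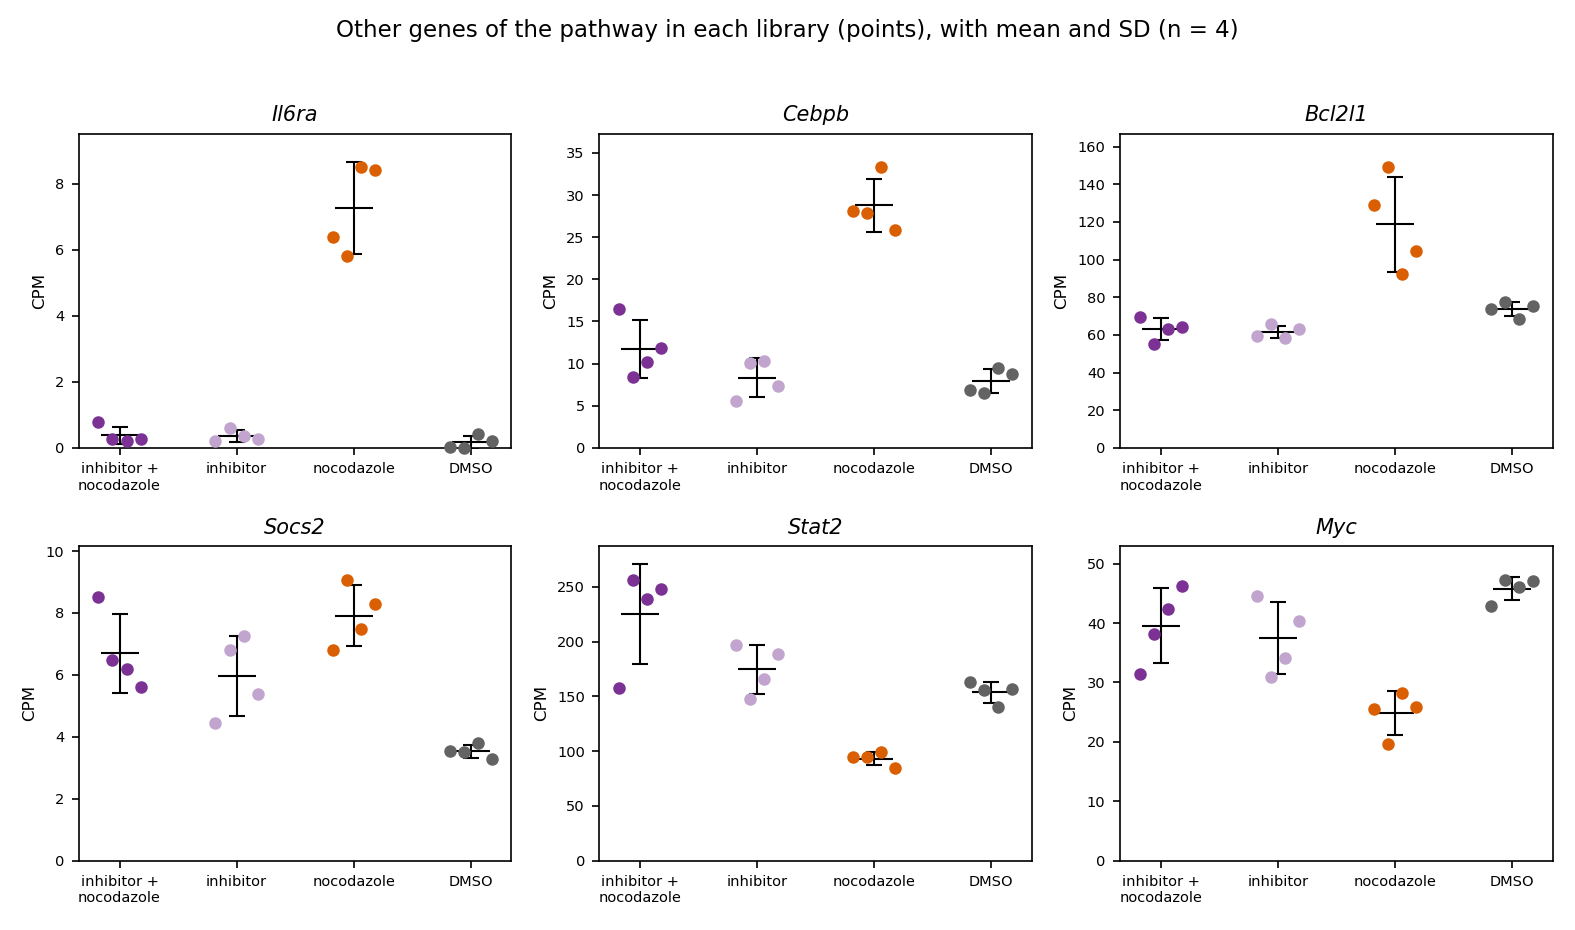
Level in CPM (vertical axis, linear from 0) of 6 other pathway genes in the 4 libraries of each group, with the mean as a bar and the SD as whiskers. The nocodazole libraries stand above all others for Il6ra, Cebpb and Bcl2l1 and below all others for Stat2 and Myc, while for Socs2 the 3 treated groups stand above DMSO.

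The genes whose level followed Stat3 most closely over the 16 libraries, among 10803 genes compared, were Trib1 (Pearson r = 0.986), a pseudokinase gene, Maff (r = 0.984), a small MAF transcription factor, and Spry2 (r = 0.982), an inhibitor of receptor tyrosine kinase signalling. For Osmr, among 10804 genes, they were St8sia2 (r = 0.93), a polysialyltransferase gene, Zcchc7 (r = 0.9) and Ankrd10 (r = 0.899). These coefficients describe 16 libraries in 4 groups that share treatments, were picked as the highest of many, and carry no test. Osmr was included through its calls in the filtered fit, which are not given as support. Its few counts in every library make its coefficients coarse.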

How the data were processed

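RNA was sequenced from 16 libraries of mouse dorsal root ganglion neurons in 4 groups of 4. Per the labels' protocols, ribosomal RNA was depleted before library construction. The deposited values are raw counts, whole numbers for each Ensembl gene in 1 table. The submitters' processing notes name STAR and Salmon with the build GRCm39; their versions, the counting step, its strand setting and the treatment of shared reads are not given in the sources used here, so the counts could be rounded estimates. Of 55356 identifiers, 52080 matched a symbol in GENCODE M21, which also gave exon lengths on GRCm38 for the levels per kilobase.

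Library sizes were scaled by TMM (factors 0.9595 to 1.064), low genes were removed with filterByExpr, and all 16 libraries entered 1 quasi-likelihood model with a mean for each group (R 4.3.3, edgeR 4.0.16, limma 3.58.1). The 5 contrasts were the 4 pairwise ones and the interaction; p-values were adjusted over all 19156 genes by Benjamini-Hochberg and called below 0.05. SE were derived from the test statistic. The fit was tested on simulated data. DESeq2 1.42.0 was an alternative, as were RLE factors, other filters, the 2 groups alone, the replicate number as a block, each library left out and, for the ratio, prior counts of 0.5 and 5.

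No replicate copied another, since a chi-square divided by its degrees of freedom came to 7.52 to 45.9 in the 24 pairs of libraries of 1 group. Named pathway genes were the 20 with the largest pairwise change among called genes of at least 1 CPM on average. For each of the 9 genes with a called log2 change of at least 1, the 3 genes of at least 5 CPM with the highest Pearson r of log2 CPM are named. The members and lists were chosen with earlier results of these data known. Intervals on counts cover counting error only. Promoters come from RefSeq on GRCm38.p6; the counted build is GRCm39, so no coordinates were joined to counts.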

Additional observations from a re-analysis of the deposited data

Results flagged for a closer look

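Of 116 groups of 4 libraries examined over 29 named genes, 4 held a library far from the other 3, where chance alone gives about 1 in 20. Of these libraries, 3 were replicate 1 of inhibitor plus nocodazole. Il6ra was at 0.7688 CPM there, against 0.2172 to 0.2826 CPM in the other 3. Stat6 was at 2.475 CPM, against 0.5275 to 0.6217 CPM, and Vegfa was at 246.5 CPM, against 175 to 185.4 CPM. In replicate 3 of the same group, Il4ra was at 5.989 CPM, against 4.855 to 5.021 CPM.

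The nocodazole change with the inhibitor differed from that without it, by the interaction term (edgeR adjusted p below 0.05), for 14 named genes. Of all genes, 18.7% were called, and 20 of the 29 named genes were picked for their large called changes, which favours such calls. The difference was 0.71 for Lifr, -0.48 for Jak2 and -0.65 for Stat3 on the log2 scale. It was -4.41 for Atf3, -5.18 for Il6ra, -3.45 for Tnfrsf12a, -3.24 for Fos (which passed the filter only with the help of the nocodazole libraries), -1.36 for Cebpb and -1.28 for Stat5a. It was 1.09 for Stat2, -0.99 for Socs2, -0.62 for Vegfa (a call lost on leaving out any of 12 libraries), -0.65 for Bcl2l1 and 0.96 for Myc. The values of Cebpb and Stat5a are uncertain, as given above, because their exons overlap those of other genes. The exons of Il6ra also overlap those of Gm42809, on the other strand, over 2.8% of their length. Those of Stat3 overlap Stat5a over 0.756%.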

How the results depend on the processing

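Of the counts of called genes and the Osmr to Lifr ratios, 191 alternative values kept their direction and side of the threshold (counts within 1.5 times), 2 counts moved and 5 ratio tests had an unadjusted exact p above 0.05, where the reported one was 0.0286 (adjusted, 0.0572 already missed 0.05). The pathway genes called for inhibitor minus DMSO numbered 10, and 6 to 11 with 1 library left out, the 6 without inhibitor replicate 2. For inhibitor plus nocodazole minus inhibitor they numbered 0, and 0 to 1, the 1 without inhibitor plus nocodazole replicate 1. For the log2 changes of the 7 tested genes, 522 alternative values kept their side, 2 reversed, 2 gained a call and 3 lost one, the calls being those of Il6st and Jak2 given above. Both reversals were of Jak1, which was never called: its change ranged over -0.001 to 0.046 for inhibitor plus nocodazole minus inhibitor and over -0.069 to 0.015 for inhibitor plus nocodazole minus nocodazole with 1 library left out. Of 693 alternative values for called changes of the named pathway genes, computed after the data were seen, 40 lost the call and 0 reversed; they belong to Clcf1, Serpina3n, Stat6, Fos and Vegfa, whose interaction was lost on leaving out any of 12 libraries.

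Pairing by replicate number was not seen, though a description of this kind cannot exclude it. Same-numbered libraries of different groups correlated at -0.399 to 0.232 in their deviations from group means, with 8 of 24 above 0.1. Differently numbered libraries correlated at -0.333 to 0.452, with 20 of 72 above 0.1. Of 16 libraries, 5 correlated best with their own number. With the number as a replicate block, the count of calls among the 7 genes was the same in all 5 contrasts, and the pathway calls were 29 for nocodazole minus DMSO, 0 for inhibitor plus nocodazole minus inhibitor, 10 for inhibitor minus DMSO, 24 for inhibitor plus nocodazole minus nocodazole and 15 for the interaction. For the ratio, permuting within replicate pairs left the differences of 1.465 (nocodazole minus DMSO) and 1.45 (inhibitor minus DMSO) at an exact p of 0.125, the smallest that 4 pairs can give. With 1 library left out, the ratio for inhibitor minus DMSO ranged over 1.253 to 1.661, with exact p of 0.0286 to 0.0571. Osmr gave no value under the strict filter or in fits of 2 groups, and DESeq2 gave it no adjusted p in 2 contrasts. Depth limits Lif, Socs3 and Osmr, which had at most 16 counts in a library. The cause of these shifts was not tested.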
